A study of Homo sapiens with 3 samples.

Results

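EP300 peaks between genes, more than 3 kb and at most 50 kb from a start site, made up 19.9% ± 0.14 (SD, n = 2) of all EP300 peaks in naive H9 cells. These peaks are the rows that the authors' annotation calls distal intergenic and places within 50 kb of the start site of the gene it assigns. There were 13048 of 65276 peaks in replicate 1 and 12842 of 64896 in replicate 2, on chromosomes 1 to 22 and X. H9 is a human embryonic stem cell line in long use. The cells were wild type and were held in PXGL, a medium with LIF that blocks MEK, tankyrase and protein kinase C, on a layer of mouse embryonic fibroblasts. All 3 samples share this culture. The series has 2 chromatin immunoprecipitation samples with an EP300 antibody and 1 input sample without antibody, with no treated or mutant group, so every comparison below is between classes of sites within these lists. Whether the EP300 samples stem from different cultures is not stated in the labels, and the variation between them may therefore be technical only. The input sample was not analysed here on its own, and the depth of sequencing is unknown, since only peaks and no read counts were used.

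EP300 is a histone acetyltransferase that has no DNA sequence preference of its own and is brought to chromatin by transcription factors. It acetylates histone H3 at lysine 27 at enhancers and promoters, and its binding away from start sites is widely used to map candidate enhancers. Naive stem cells resemble the epiblast of the embryo before implantation and depend on factors such as KLF17, TFCP2L1 and TFAP2C, while primed cells resemble a later epiblast with high OTX2 and ZIC2. A peak between genes does not say which gene it acts on, and the assigned gene is only the one with the nearest annotated start. The tables hold no expression values, so the naive state could be set only against binding at marker genes. Of 10 naive markers, 9 had a promoter peak in both replicates (all but ARGFX), as did 8 of 8 primed markers and 5 of 8 fibroblast markers, beside 68.1% of all coding genes. Of the wider gene lists used below, 18 of 23 naive, 19 of 20 primed and 11 of 18 fibroblast genes had such a peak. So did 16 of 18 mesoderm and 14 of 17 neuroectoderm genes. Markers of both states, and genes of other lineages, were thus bound at their promoters.

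The sequences shown here are those of start sites that RefSeq places inside strong peaks that the authors' annotation calls intergenic. They come from the RefSeq table of 300 bp windows (250 bases before to 50 after a start, GRCh38.p14) and are all on the plus strand. Each is the window of a long non-coding RNA gene, lies whole inside a region found in both replicates and holds the summit of both replicates. They are the 4 such windows with the highest rank by fold enrichment outside 1 chromosome that was not searched. LOC105370680 (chr14:102517217-102517516) lies in a region assigned to ANKRD9 where fold enrichment was 22.7 in replicate 1 and 25.4 in replicate 2. LOC124907997 (chr2:231412046-231412345) lies in a region assigned to B3GNT7, at 21.4 and 27.0. LOC101928391 (chr1:27031508-27031807) lies in a region assigned to TENT5B, at 19.3 and 18.4. LOC105372923 (chr1:218164807-218165106) lies in a region assigned to the small RNA copy RNU1-141P, at 17.5 and 19.0. Capitals mark matches on either strand to 6 motifs, spelled out below, with overlapping matches joined.
LOC105370680: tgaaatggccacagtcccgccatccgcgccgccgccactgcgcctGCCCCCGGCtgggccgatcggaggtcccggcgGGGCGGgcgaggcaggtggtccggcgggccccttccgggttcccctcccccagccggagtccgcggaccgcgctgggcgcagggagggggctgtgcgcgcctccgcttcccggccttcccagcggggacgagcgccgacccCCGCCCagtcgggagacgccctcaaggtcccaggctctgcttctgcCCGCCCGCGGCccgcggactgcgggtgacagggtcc
LOC124907997: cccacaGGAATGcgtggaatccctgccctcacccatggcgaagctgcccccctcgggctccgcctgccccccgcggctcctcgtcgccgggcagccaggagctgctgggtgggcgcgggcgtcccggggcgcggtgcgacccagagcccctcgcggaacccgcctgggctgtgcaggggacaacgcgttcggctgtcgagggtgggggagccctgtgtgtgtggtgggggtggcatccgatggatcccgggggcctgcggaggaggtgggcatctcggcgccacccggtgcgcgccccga
LOC101928391: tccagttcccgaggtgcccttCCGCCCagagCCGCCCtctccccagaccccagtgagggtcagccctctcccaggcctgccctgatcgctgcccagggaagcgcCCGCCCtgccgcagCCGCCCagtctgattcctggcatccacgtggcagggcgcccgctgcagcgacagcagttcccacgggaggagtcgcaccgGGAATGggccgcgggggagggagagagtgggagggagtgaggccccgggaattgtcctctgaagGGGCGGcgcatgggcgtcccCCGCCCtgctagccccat
LOC105372923: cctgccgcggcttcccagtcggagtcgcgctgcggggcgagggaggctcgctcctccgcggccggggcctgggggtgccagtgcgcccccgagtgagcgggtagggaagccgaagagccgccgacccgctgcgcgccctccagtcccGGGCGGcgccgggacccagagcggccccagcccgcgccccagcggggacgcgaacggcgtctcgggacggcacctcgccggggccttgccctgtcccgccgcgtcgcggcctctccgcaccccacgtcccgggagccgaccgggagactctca
All 4 windows are rich in G and C (78.3%, 75.3%, 71.7% and 79.3%) and hold 39, 32, 22 and 46 CpG pairs. Over all 34789 distinct RefSeq windows the medians were 58.7% and 14. Over the 172 windows inside intergenic regions they were 60.3% and 10, so the 4 windows shown lay above the medians of their own class. The ANKRD9 window holds 2 matches to the TFAP2 motif and 3 to the GC box, the TENT5B window 6 to the GC box and 1 to the TEAD motif, the B3GNT7 window 1 to the TEAD motif and the RNU1-141P window 1 to the GC box.

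Start sites of this kind were a small share of the intergenic regions. For all region counts below, overlapping intergenic peaks were merged and kept where both replicates had one, which gave 8366 reproducible intergenic regions, 18.1% of all 46263 reproducible regions. Of these, 197 (2.35%) overlapped a RefSeq start window and 18 overlapped that of a coding gene, among them DCT (a melanin synthesis enzyme, 17.3 and 20.3 in the replicates) and VDAC1 (the mitochondrial outer membrane channel, 10.0 and 9.04). RefSeq thus places 84.0% of the regions outside all of its genes, 12.2% inside a long non-coding RNA gene and 3.16% inside a coding gene. The 172 windows that lay whole inside an intergenic region were 91.3% long non-coding RNA starts, beside 36.8% of all windows. They held a median of 10 CpG pairs. The 13586 windows inside reproducible promoter regions were 19.2% such starts and held a median of 28. These sets thus differ in the type of start, and its part in the CpG and motif values was not tested. Within the strongest regions, those above the 90th percentile of both lists, 32 windows had a median of 14.5 CpG pairs, and in regions up to the 50th percentile 50 windows had 8.5.

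The motif searches covered both strands, and a match is only a match of letters. The GC box, GGGCGG, bound by the SP and KLF families, was in 41.3% of the windows inside intergenic regions, 44.9% of all windows and 74.6% of windows inside promoter regions. The TFAP2 motif, GCCNNNGGC, was in 23.8%, 23.2% and 36.9%. The TEAD motif, GGAATG, was in 16.3%, 14.1% and 10.0%. The AP-1 motif, TGANTCA, was in 6.98%, 7.69% and 3.97%, and the octamer ATGCAAAT bound by POU5F1 was in 3.49%, 1.77% and 0.95%. The cyclic AMP response element, TGACGTCA, was in 0 of the 172 windows, which allows a share of up to 1.74%, and in 1.84% of all windows and 2.70% of windows inside promoter regions. Windows inside intergenic regions were thus close to all windows for the GC box and TFAP2 motifs, and below windows inside promoter regions for both.

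Intergenic peaks were weaker and narrower than promoter peaks and close to intronic ones. Fold enrichment here is the authors' own signal value, taken to be a ratio over input at the summit, and is compared only within a list. Its median for intergenic peaks was 4.09 in replicate 1 (quartiles 3.36 and 5.49) and 4.12 in replicate 2 (3.34 and 5.50). Promoter peaks had medians of 5.67 and 5.71, peaks in later introns 3.97 and 3.91, peaks in first introns 3.95 and 3.94, and intergenic peaks over 50 kb from a start site 4.06 and 4.16. The gap between intergenic and promoter peaks was far larger than the spread between replicates (4.11 ± 0.021 against 5.69 ± 0.029, SD, n = 2). The gap to intergenic peaks over 50 kb (4.11 ± 0.071, SD, n = 2) was within it. The gap to later introns (3.94 ± 0.043) was larger than the spread, but small. In a design of 2 samples no test between classes was run.

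**Figure D1:**
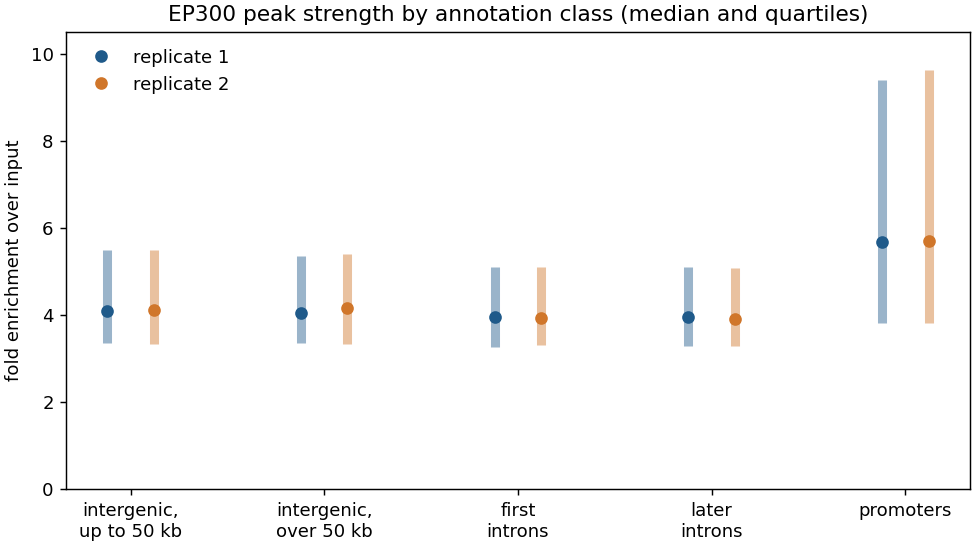
Fold enrichment over input (vertical axis) of EP300 peaks in 5 annotation classes; points are medians and bars run from the lower to the upper quartile, for replicate 1 and replicate 2. Intergenic peaks up to 50 kb sit at 4.09 and 4.12, beside introns and below promoters at 5.67 and 5.71.

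Intergenic peaks were less often among the strongest than promoter peaks, and more often than peaks in later introns. Of the intergenic peaks, 4.66% in replicate 1 and 4.47% in replicate 2 were in the top 10th of their list by fold enrichment, against 16.6% and 16.7% of promoter peaks and 3.08% and 3.10% of peaks in later introns. Intergenic peaks over 50 kb from a start site had similar shares, 4.06% in replicate 1 and 4.84% in replicate 2. The median intergenic peak was 662 bp and 693 bp wide, later intron peaks 612 and 637 bp, and promoter peaks 930 and 975 bp. More than 1 summit was found in 13.8% and 13.7% of intergenic peaks, beside 18.1% and 17.7% of all peaks and 9.84% and 9.58% of later intron peaks. Intergenic peaks covered 11.2 Mb and 11.5 Mb of the genome.

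Intergenic peaks near genes recurred between replicates more often than intronic peaks or intergenic peaks farther away, and less often than promoter peaks. A peak counted as shared if it overlapped any peak of the other list by at least 1 bp. The share was 68.8% in replicate 1 (Wilson 95% interval 68.0 to 69.6) and 68.7% in replicate 2 (67.9 to 69.5), beside 74.5% and 73.9% of all peaks. Intergenic peaks over 50 kb from a start site were shared in 63.8% (61.9 to 65.6) and 64.6% (62.7 to 66.4), later intron peaks in 62.1% (61.1 to 63.1) and 61.4% (60.4 to 62.3), and promoter peaks in 84.2% and 83.3%. The intervals cover counting error only, and peaks are not independent replicates. Shared intergenic peaks had a median fold enrichment of 4.68 in both replicates, and the others 3.47 and 3.46.

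Sharing followed strength in the 4 classes split by decile (intergenic up to and over 50 kb, later introns and promoters). In the lowest decile of fold enrichment 42.8% and 41.0% of intergenic peaks were shared, in the seventh 92.2% and 91.5%, and in the 2 highest deciles all were (752 and 608 peaks in replicate 1, 773 and 574 in replicate 2). In the fifth decile, 67.6% and 66.1% of intergenic peaks were shared, beside 62.7% and 61.0% of later intron peaks. In each of the 8 lowest deciles the intergenic share was above that of later introns in both replicates.

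**Figure D2:**
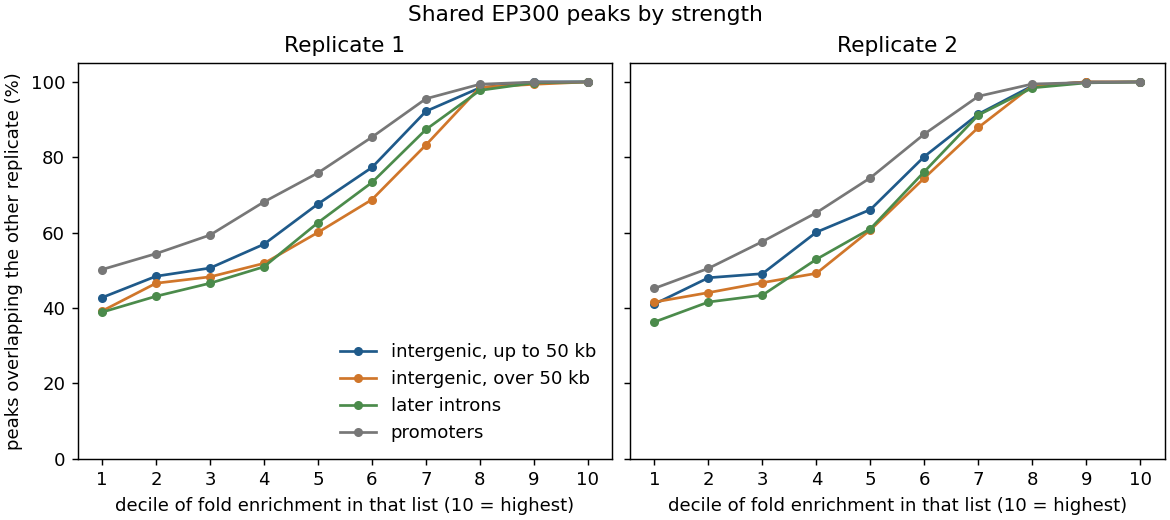
Share of peaks that overlap a peak of the other replicate (vertical axis, percent) against the decile of fold enrichment in the peak's own list (horizontal axis), for 4 annotation classes, with replicate 1 on the left and replicate 2 on the right. Intergenic peaks up to 50 kb run from 42.8% and 41.0% in the lowest decile to 100% in the highest, between promoters and later introns in the fifth decile.

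Where an intergenic peak was shared, its partner was nearly always called intergenic too. Overlapping peaks cover much of the same sequence, which largely fixes this, and peaks without a partner are not counted here. Of the shared intergenic peaks, 98.3% in replicate 1 and 98.9% in replicate 2 overlapped a peak of the same class. A promoter peak was the partner of 96 and 72, a gene-end peak of 49 and 19, and an intron peak of 0. Fold enrichment of the 8366 regions correlated between replicates with a Spearman rho of 0.757, a description over regions that share their libraries. In 84 regions (1.00%) it differed by more than 2 times. The summits of the replicates lay a median of 74 bp apart, and within 100 bp in 58.9% of regions. The assigned gene differed between replicates in 46 regions.

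**Figure D3:**
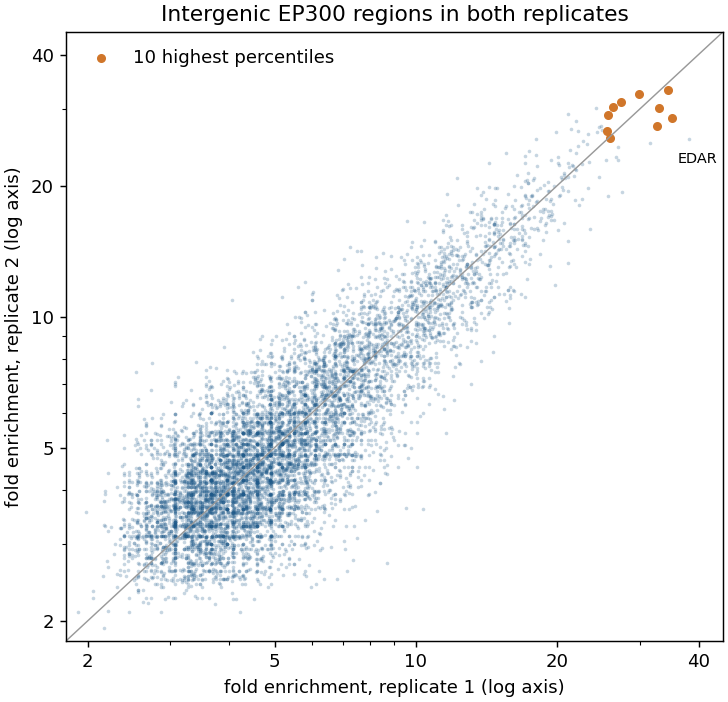
Fold enrichment of the 8366 reproducible intergenic regions in replicate 1 (horizontal) and replicate 2 (vertical), both on log axes; each point is a region, the grey line marks equal values and orange points are the 10 regions of highest percentile. Points lie along the line, and the EDAR region, at 38.1 and 25.5, has the highest value of replicate 1.

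Intergenic peaks were spread over the range of distances the limit allows, and their strength differed little with distance. How intergenic sequence itself is spread over these distances was not computed. The median distance to the assigned start site was 14.4 kb in both replicates. There were 1345 and 1328 peaks at 3 to 5 kb, 3045 and 3002 at 5 to 10 kb, 3970 and 3962 at 10 to 20 kb and 4688 and 4550 at 20 to 50 kb. Median fold enrichment across these bins was 4.14, 4.14, 4.14 and 4.05 in replicate 1 and 4.12, 4.16, 4.11 and 4.08 in replicate 2. The shared fraction was 70.6%, 69.4%, 69.3% and 67.5% in replicate 1 and 70.5%, 68.9%, 68.2% and 68.4% in replicate 2. Over regions, fold enrichment and distance had a Spearman rho of -0.020 and fold enrichment and length one of 0.456.

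More intergenic peaks lay upstream of the assigned gene than beyond its end. Upstream peaks were 56.4% in replicate 1 (Wilson 95% interval 55.6 to 57.3) and 56.1% in replicate 2 (55.3 to 57.0). Their share was 69.7% and 67.4% at 3 to 5 kb and 51.6% and 51.3% at 20 to 50 kb. Start and length here are those of the assigned entry in the authors' annotation, which need not span the whole gene. For FTO, a region 43476 bp beyond the assigned start in replicate 1 lay 71225 bp from the RefSeq gene. A peak beyond the end of an entry can be within 50 kb of its start only where the entry is shorter than that. Entries had a median length of 1.5 and 1.48 kb for peaks beyond the end, against 6.21 and 6.49 kb for upstream peaks. Fold enrichment was alike on both sides, 4.10 and 4.12 upstream and 4.09 and 4.13 beyond the end.

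**Figure D4:**
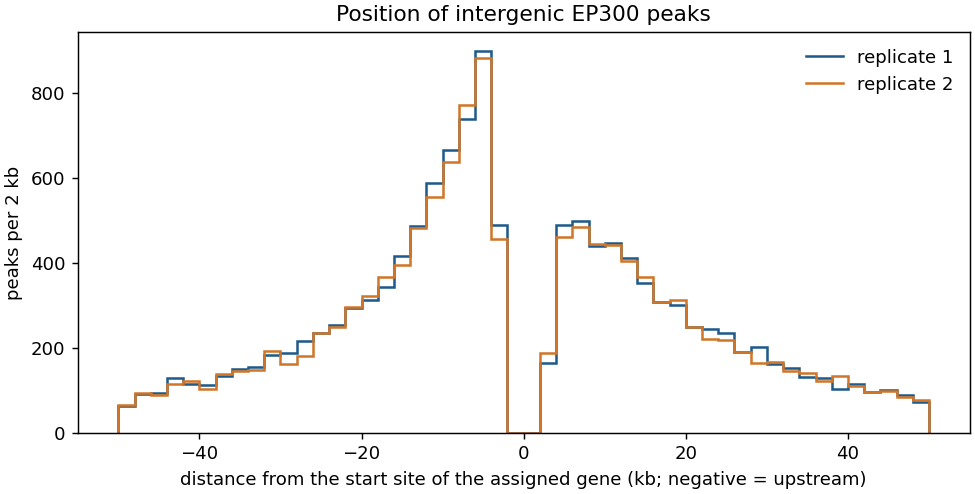
Number of intergenic EP300 peaks per 2 kb (vertical axis) by distance from the start site of the assigned gene in kb (horizontal axis, negative upstream), with 1 line per replicate. The gap in the middle is the 3 kb on each side that the annotation counts as promoter, and upstream peaks outnumber those beyond the gene end close to the start site.

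The limit of 50 kb fell within a continuous range of values. The regions just inside it were assigned to ENSG00000287823 (49.991 kb, fold enrichment 4.58 and 4.81), LINC01070 (49.905 kb, 5.78 and 6.01) and SMIM20 (49.847 kb, 3.97 and 4.51), with the distance in replicate 1. The regions just outside were assigned to ENSG00000250082 (50.108 kb, 7.36 and 5.06), CWC22 (50.014 kb, 5.17 and 4.58) and ENSG00000282048 (50.649 kb, 3.71 and 4.22).

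Intergenic regions near genes had a close neighbour more often than later intron regions or intergenic regions farther away. The share over all reproducible regions was not computed. Of the 8366 regions, 68.0% (67.0 to 69.0) lay within 10 kb of another reproducible EP300 region of any class, against 57.0% (55.7 to 58.3) of 5385 later intron regions and 43.6% (41.2 to 46.0) of 1639 intergenic regions over 50 kb from a start site. The median gap to the next region was 3.98 kb, 6.17 kb and 16.6 kb. A promoter region lay within 10 kb of 23.1% of the intergenic regions and of 18.0% of the later intron regions. The class over 50 kb had none, which its distance from start sites fixes, and this also lowers its share with any neighbour. The 449 regions above the 90th percentile had a neighbour within 10 kb in 61.7%, and the 2365 regions up to the 25th percentile in 68.7%. Their median lengths were 1727 bp and 835 bp.

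The start site of the assigned gene was often bound as well. It had a promoter peak in both replicates for 52.0% of the intergenic regions (50.9 to 53.0) and for 32.2% of those over 50 kb (30.0 to 34.5). Where the assigned gene was a coding one, these shares were 85.3% (84.0 to 86.6) of 2785 regions and 81.6% (77.3 to 85.3) of 359, with intervals that overlap. Counted by gene, 83.4% (81.6 to 85.1) of the 1710 coding genes with an assigned intergenic region had a promoter peak in both replicates, against 66.7% (66.0 to 67.4) of the other 18264 coding genes and 68.1% of all. A RefSeq coding gene whose name the authors' annotation does not use counts here as without a peak, which lowers the share of the other genes.

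Most assigned genes were not coding genes. Coding genes took 2785 regions (33.3%), Ensembl genes without a symbol 2874 (34.4%), pseudogenes 1039 (12.4%), small RNA genes and their copies 637 (7.61%), LINC genes 598 (7.15%), microRNA genes 152 and antisense or divergent RNA genes 150. Median percentiles were similar across these types, from 38.3 for microRNA genes to 46.9 for pseudogenes, beside 44.5 over all regions. A region's percentile was taken from its rank by fold enrichment among all peaks of each list, using whichever list ranked it lower. A promoter peak was found for 22.4% of the regions assigned to a pseudogene and 22.6% of those assigned to a small RNA gene. The nearest RefSeq coding gene lay within 50 kb of 5764 regions (68.9%), with a median gap of 26.0 kb over all regions, and was the assigned gene for 29.3%. By that assignment 3059 coding genes had an intergenic region (15.3% of 19974), against 1710 (8.56%) by the authors' assignment.

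The share of intergenic regions among all reproducible regions differed by chromosome. It was lowest on chromosome 19, at 241 of 2406 (10.0%, 8.88 to 11.3), and next lowest on chromosomes 17 (12.1%) and 16 (13.3%). It was highest on X, at 381 of 1451 (26.3%, 24.1 to 28.6), followed by chromosomes 13 (23.4%) and 18 (23.1%). Chromosomes 19, 17 and 16 held 1451, 1169 and 854 coding genes, and X, 13 and 18 held 848, 338 and 270. Chromosome 1, with 2062, had a share of 18.2%. These counts are not set against chromosome length, and how the share relates to gene density was not tested.

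The region of highest percentile was upstream of SCOC, a Golgi-associated coiled-coil protein. It spanned chr4:140251992-140253559 (GRCh38), 3.83 kb from the start site, and its fold enrichment was 34.4 in replicate 1 and 33.1 in replicate 2. The next regions were on chromosome 19. At chr19:14246483-14250513 the values were 29.8 and 32.5, 40.3 kb from ADGRL1, a latrophilin adhesion receptor, which is the nearest coding gene. At chr19:53591658-53595270 they were 33.0 and 30.1, 5.84 kb from DPRX, a homeobox gene of the PRD-like group known from the early human embryo. At chr19:29723172-29725966 they were 35.1 and 28.6, 7.44 kb upstream of C19orf12, which encodes a mitochondrial membrane protein. All 4 had percentiles of 99.859 or higher in both replicates, which the ranking by the lower percentile fixes.

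The other regions among the 10 of highest percentile lay near genes of varied function. A region 10.4 kb upstream of NTMT1, which methylates protein N-termini, had 27.3 and 31.1. A region 21.0 kb from TPT1, the translationally controlled tumour protein, had 32.6 and 27.4, and 1 at 32.5 kb from IMPA2, an inositol monophosphatase, had 26.2 and 30.4. A region 15.3 kb upstream of STMN1, which destabilises microtubules, had 25.6 and 29.0. A region 6.44 kb upstream of MPZL1, a cell surface glycoprotein, had 25.5 and 26.8. The tenth lay 16.1 kb from ID1, a target of BMP signalling that inhibits basic helix-loop-helix factors, with 26.0 and 25.8, and was assigned to the small RNA copy RNU6-384P. Of these 10 regions, 5 were assigned to a coding gene, and all 5 of those genes had a promoter peak in both replicates.

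Strong regions far from their assigned start site were also seen. A region 41.8 kb upstream of EDAR, the ectodysplasin receptor, had 38.1 in replicate 1 and 25.5 in replicate 2, and it lay inside the RefSeq extent of RANBP2. A region 47.4 kb upstream of PODXL, which encodes the podocalyxin that carries pluripotency surface epitopes, had 26.7 and 23.3. The widest region, 16456 bp at chr4:1764784-1781239 beside FGFR3, a fibroblast growth factor receptor, had 12.6 and 13.6, but its strongest peaks lay 12675 bp apart in the replicates and were assigned to TACC3 in replicate 1 and to FGFR3 in replicate 2. The others of the 5 widest were assigned to LINC02038 (9823 bp), RN7SL499P (9136 bp), ENSG00000279141 (8884 bp, 36.6 kb from NOTCH1, the Notch receptor) and ENSG00000278925 (8254 bp, 9.41 kb from PCDH1, a protocadherin). Their fold enrichment ran from 14.4 to 19.2 in replicate 1 and from 14.5 to 17.7 in replicate 2.

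Regions gathered into runs. With gaps of up to 10 kb, the 8366 regions formed 5189 runs, of which 3652 were single regions (43.7% of regions) and 212 held 5 regions or more. The largest held 25 regions over 90.3 kb at chr7:131566132-131656390, upstream of PODXL, and 13 of them were assigned to PODXL and 12 to the pseudogene EEF1B2P6. Fold enrichment in it ran from 2.53 to 26.7 in replicate 1 and from 2.99 to 23.3 in replicate 2, and its median percentile of 45.6 was close to that of all regions. The next 3 runs held 15 regions each. They lay near ZFP36L2, an RNA-binding protein that shortens messages with AU-rich elements, near DNAJB6, a chaperone, and near TCERG1L.

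By gene, the most regions were assigned to TCERG1L-AS1, with 15, all upstream. Their fold enrichment ran from 2.56 to 13.4 in replicate 1 and from 3.38 to 12.6 in replicate 2, with medians of 5.78 and 5.69. Among the next genes, PODXL and ENSG00000280047, near NDFIP1, an adaptor for NEDD4 ligases, had 13 each. ENSG00000287387 near ZFP36L2, ENSG00000289243 near JADE1 and EEF1B2P6 had 12 each. ENSG00000229660, ENSG00000260750 near JPH3 and ENSG00000233625 near SNX5 had 11 each. Most genes had few: of 4826 assigned genes, 3136 had 1 region and 20 had 10 or more. By the nearest coding gene within 50 kb, TCERG1L had 16, ZNF469 14, PODXL, LOC105370092 and RBFOX3 13 each, and ADRA2C, ZFP36L2, NDFIP1, MYCN and FAM53A 12 each. MYCN is a MYC family factor of stem cells, and its regions reached 7.02 in replicate 1 and 7.81 in replicate 2.

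Intergenic regions were found at genes of naive, primed and general pluripotency. By the authors' assignment 6 of 23 naive genes, 6 of 20 primed genes and 6 of 20 genes of both states had at least 1, beside 8.56% of all coding genes. With a fold enrichment of at least 5 the counts were 2, 5 and 3, and by the nearest gene 10, 7 and 6, beside 15.3% of all coding genes. The lists were chosen with earlier results of these data known and carry no test. Here and below, where a gene had more than 1 region, the values reached are the highest of each replicate. They can come from different regions. Among naive genes, DPPA5, an RNA-binding protein of early embryos, had the strongest region, at 21.97 and 28.1 beyond its end, and a second at 2.81 and 3.98. The regions of DPPA3, a maternal factor that guards DNA methylation, reached 4.50 and 3.68, and those of FGF4, an autocrine growth factor, 2.94 and 3.72. ZFP42, a classic stem cell marker also called REX1, had 1 region at 10.6 and 12.3. DNMT3L, a cofactor of DNA methylation, had 1 at 3.92 and 3.27, and TFCP2L1, a naive transcription factor, 1 at 5.61 and 4.54. The list's 9 regions had a median percentile of 18.4, below the 44.5 of all regions, and only DPPA5 (99.3), ZFP42 (88.3) and TFCP2L1 (50.6) had a region above that median.

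Primed genes had a region of similar strength. OTX2, a homeobox factor of the primed state, had 1 region at 19.1 and 20.3, of percentile 98.5. SALL2, a zinc finger factor, had 7 regions at 3.53 to 12.1 kb from its start, between 2.56 and 7.32 in replicate 1 and between 3.75 and 6.37 in replicate 2. HMX2, a homeobox gene, had 1 at 10.96 and 9.61, though the RefSeq coding gene nearest to it was another. CD24, a surface marker of primed cells, had 1 at 6.71 and 8.26. DNMT3B, a de novo DNA methyltransferase, had 1 at 5.43 and 8.05, and CYTL1, a secreted cytokine-like protein, 1 at 5.36 and 3.64. The 12 primed regions had a median percentile of 57.9. The difference between the naive and primed lists was not tested.

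Of the genes of both states, PODXL had 13 regions. NODAL, the ligand that holds pluripotency in primed cells, had 1 at 10.4 and 13.2, though the RefSeq coding gene nearest to it was another. PRDM14, a repressor of the FGF pathway in stem cells, had 2, at 7.17 to 7.77 in replicate 1 and 8.0 to 8.51 in replicate 2. POU5F1, the core pluripotency factor OCT4, had 2 reaching 4.75 and 3.85, LEFTY2, an inhibitor of NODAL, 2 reaching 5.11 and 3.81, and SALL4, a zinc finger factor, 1 at 2.86 and 3.42. PODXL, NODAL and PRDM14 thus had regions above 75 in percentile, and POU5F1, LEFTY2 and SALL4 had none above 35.2.

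The pathways that PXGL acts on had intergenic regions at some of their genes. Of 16 genes of LIF and STAT3 signalling, 4 had regions (25%), beside 8.56% of all coding genes and 4 of 24 housekeeping genes (16.7%). By the nearest gene the count was 7 (43.75%), beside 15.3% of all coding genes and again 16.7% of housekeeping genes. PIM1, a kinase induced by STAT3, had 7 regions between 25.7 and 37.1 kb upstream, with fold enrichment from 2.84 to 11.5 in replicate 1 and from 3.33 to 13.8 in replicate 2. LIF, the ligand itself, had 3 regions reaching 5.61 and 4.58, PIM3, a related kinase, 2 reaching 6.74 and 8.09, and SOCS3, the feedback inhibitor, 1 at 6.57 and 9.69. Of 18 genes of FGF and ERK signalling, 4 had regions (22.2%, beside the same 8.56%). With a fold enrichment of at least 5 the count was 2, beside 799 of all 19974 coding genes. By the nearest gene it was 8 (44.4%), beside 15.3%. SPRY4 and SPRY2, feedback inhibitors of the pathway, had 3 each, reaching 6.07 and 5.84 for SPRY4 and 4.27 and 4.81 for SPRY2. CCND1, the cyclin induced by growth factors, also had 3, reaching 4.29 and 5.396. SPRY1 had 2, 1 at 7.32 and 4.81 and 1 at 5.49 and 7.51.

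**Figure D5:**
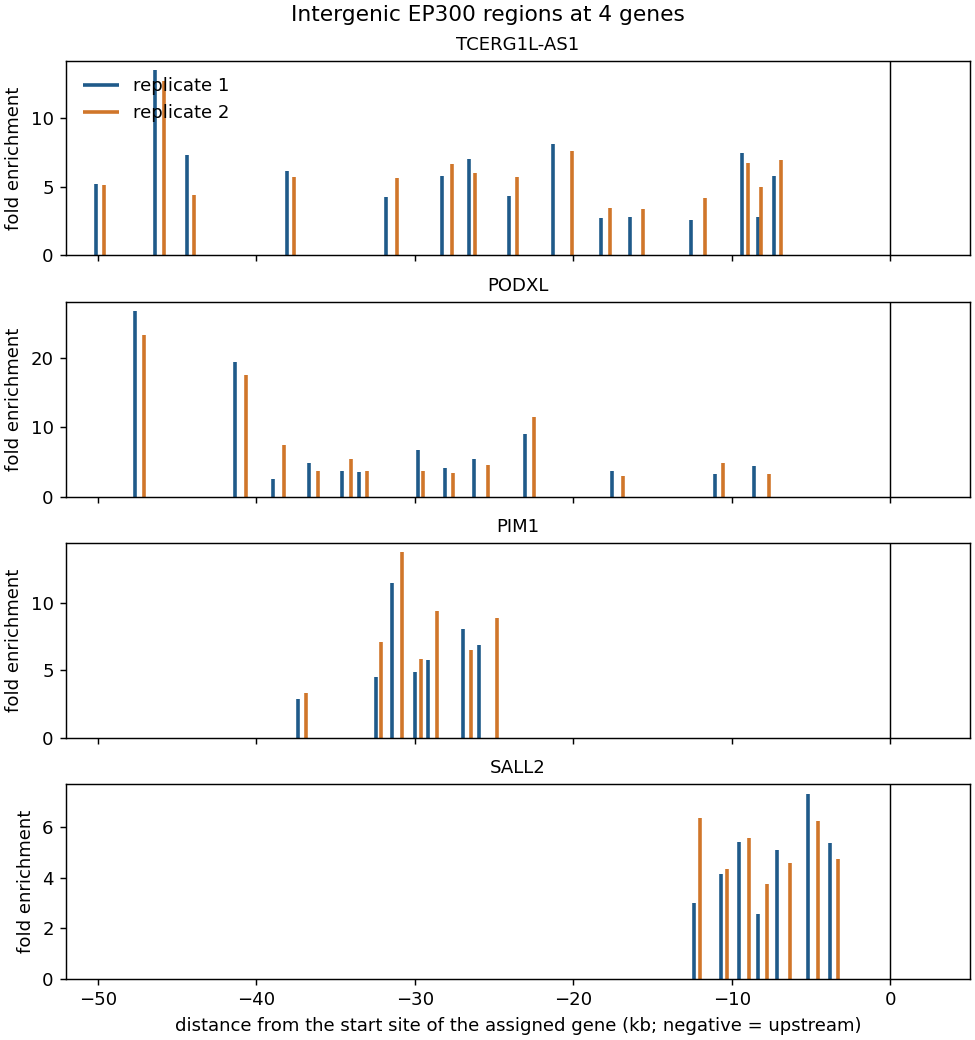
Fold enrichment (vertical axes, scaled per panel) of the intergenic regions assigned to TCERG1L-AS1, PODXL, PIM1 and SALL2 by distance from the start site in kb (horizontal axis, negative upstream, start site as a vertical line), with replicate 1 in blue and replicate 2 in orange, drawn slightly apart. The highest PODXL regions lie farthest from the start site, at 41.1 and 47.4 kb in replicate 1, and the 7 PIM1 regions lie together between 25.7 and 37.1 kb.

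Of 16 WNT genes, 4 had a region (25%), beside 8.56% of all coding genes, and 2 with a fold enrichment of at least 5. TNFRSF19, a receptor induced by WNT, had 1 at 22.6 and 18.6, BMP4, a ligand of mesoderm and trophectoderm fate, 1 at 8.58 and 7.92, AXIN2, the feedback inhibitor of the pathway, 1 at 4.63 and 5.69, and DKK1, a secreted inhibitor, 1 at 3.27 and 3.42. For the BMP4 region, another RefSeq coding gene was the nearest. Of 19 genes of NODAL, BMP and TGF-beta signalling, 6 had regions (31.6%, beside the same 8.56%). With a fold enrichment of at least 5 the count was 3, beside the same 799. With a limit of 25 kb it was also 3, beside 1454 of all coding genes. The BMP targets ID3 and ID1 had 2 each, reaching 13.3 and 16.1 for ID3 and 10.98 and 12.4 for ID1. SMAD4, the common mediator, had 1 at 6.83 and 12.8. SMAD7, the inhibitory SMAD, had 2, 1 at 5.49 and 2.56 and 1 at 3.92 and 3.66. SMAD2, a receptor substrate, had 1 at 4.34 and 3.64, and TGFBR2, a receptor, 1 at 4.34 and 3.13. For the TGFBR2 region, too, another RefSeq coding gene was the nearest. Of 18 Hippo genes, 3 had a region (16.7%, the share of the housekeeping list), and 1 with a fold enrichment of at least 5. By the nearest gene the count was 6 (33.3%), beside 15.3% of all coding genes. Among them, LATS2, a kinase that restrains YAP, had 1 region at 19.1 and 16.9, STK3, the kinase above it, 1 at 4.05 and 4.24, and NF2, an upstream activator, 1 at 2.86 and 3.30.

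The count for genes of other lineages depended on how regions were assigned. By the authors' assignment, 2 of 18 trophectoderm genes (11.1%), 2 of 18 mesoderm genes (11.1%), 1 of 17 neuroectoderm genes (5.88%) and 1 of 18 fibroblast genes (5.56%) had a region, close to the 8.56% of all coding genes. By the nearest coding gene within 50 kb the counts were 6 (33.3%), 8 (44.4%), 4 (23.5%) and 2 (11.1%), beside 15.3% of all coding genes and 10 of 23 naive genes (43.5%). Leaving out a replicate gave 4 trophectoderm genes without replicate 2, and 4 mesoderm and 2 fibroblast genes whichever replicate was left out. Over all coding genes, 2219 had a region without replicate 1 and 2291 without replicate 2. The trophectoderm genes by the authors' assignment were KRT18, an epithelial keratin, with 1 region at 14.6 and 15.6, and GATA2, a trophoblast factor, with 1 at 4.47 and 4.67. Of the mesoderm genes, MIXL1 and MSGN1, both early mesoderm factors, had 1 each, at 4.27 and 6.01 for MIXL1 and 4.34 and 3.61 for MSGN1. Of the neuroectoderm genes, EN1, a midbrain homeobox factor, had 1 at 6.71 and 7.97. None of 17 primitive endoderm genes had a region by either assignment, but 2 had one without replicate 1 and 1 without replicate 2, and at 8.56% a list of this size holds few such genes. Of these 17 genes, 14 (82.4%) had a promoter peak in both replicates, beside 68.1% of all coding genes. Of the fibroblast genes, COL5A1, a collagen, had 4 regions, none above 4.34 and 3.98. Fibroblasts were the feeder layer, and their part in these values was not tested.

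Coactivator genes, genes of the O-GlcNAc pathway and housekeeping genes completed the lists, with regions at 2 of 20 (10%), 2 of 14 (14.3%) and 4 of 24 genes (16.7%), beside 8.56% of all coding genes. Coactivator genes with a region numbered 4 without replicate 1, 0 with a fold enrichment of at least 5 and 7 (35%) by the nearest gene. Housekeeping genes with one numbered 2 with a fold enrichment of at least 5 or a limit of 25 kb, and O-GlcNAc genes 4 (28.6%) by the nearest gene. Over all coding genes, 2219 had a region without replicate 1, 799 with a fold enrichment of at least 5 and 1454 with a limit of 25 kb. By the nearest gene the share of all coding genes was 15.3%. O-GlcNAc is a sugar that OGT adds to nuclear and cytoplasmic proteins and OGA, the enzyme in the title of the series, removes. Of the genes of O-GlcNAc and hexosamine metabolism, NAGK, which salvages N-acetylglucosamine, had 5 regions between 2.70 and 9.44 in replicate 1 and between 3.14 and 6.73 in replicate 2, and GFPT2, an entry enzyme of the hexosamine pathway, had 2 reaching 8.53 and 8.48. No region was assigned to OGA, OGT or EP300. The nearest lay 24.2 kb from OGA (assigned to FGF8, 4.16 and 4.52), 46.7 kb from OGT (assigned to CXCR3, 4.59 and 4.58) and 42.7 kb from EP300 (5.84 and 5.57). Of the coactivator genes, the acetyltransferase KAT6A had 1 region at 3.07 and 4.61, and CRTC1, a CREB coactivator, had 2 reaching 4.90 and 3.88. Of the housekeeping genes, ACTB, beta-actin, had 3 reaching 18.5 and 16.9, though another RefSeq coding gene was the nearest to each. IPO8, an importin, had 1 at 7.16 and 8.81, and TFRC, the transferrin receptor, had 1 at 3.36 and 4.17.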

How the data were processed

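EP300 was mapped by ChIP-seq in 2 samples of wild-type naive H9 cells, with 1 input sample. The authors deposited 1 peak table per EP300 sample, annotated with ChIPseeker per the file names, so peaks were called per sample. Per the file headers, each deposited row holds the fold enrichment at a summit, a ratio, and its p-value and q-value, both as -log10. The deposited score column was not used. The submitters' processing notes name fastp 0.19.11 and the build GRCh38. Which aligner and peak caller were used, and with what settings, is not given in the sources used here. Read depth is unknown, and the number of samples limits the precision.

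Rows of 1 interval were treated as 1 peak, with the fold enrichment and position of its highest summit. Overlap needed 1 bp. Coding genes were those that RefSeq (GRCh38.p14) lists as protein-coding on chromosomes 1 to 22 and X, 19974 in all, matched to the authors' gene names by symbol. Shares have Wilson 95% intervals (counting error only), and the limit on a count of 0 is 3 counts of the total. With 1 group of 2 samples there was no test between conditions. The overlap step was tested on simulated data of 20000 peaks and found 100% of the overlaps set. Python 3.11.15, numpy 2.4.6, pandas 2.3.3, scipy 1.17.1 and matplotlib 3.10.9 were used.

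The members, the 16 gene lists and the rules were chosen with earlier results of these data known. Genes named are those of the 10 regions of highest percentile, the 10 genes with most regions, up to 3 genes per list with most regions, the 5 widest regions, 3 regions on each side of the 50 kb limit and the largest run. All 296 list genes were matched. Some genes that the rule takes are left out of the text. Windows on chromosome 8 were not searched for the sequences shown. Other genes, the other members of a list and the sequences shown were chosen after their values were seen. Alternatives were other limits of distance, stricter fold enrichment and q-value, a larger overlap, a shorter window, the nearest RefSeq gene and leaving out each replicate.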

Additional observations from a re-analysis of the deposited data

Results flagged for a closer look

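Peaks outside chromosomes 1 to 22 and X were left out of every count in the report. Among them, 21 peaks in replicate 1 and 19 in replicate 2 on unplaced sequences were intergenic and within 50 kb of a start site. They lay on 8 sequences in each list, with a highest fold enrichment of 9.98 and 10.3. No peaks of a control sample were used here.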

How the results depend on the processing

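Of 65 values recomputed under other settings, 30 stayed within the spread between replicates, the counting interval or 1.5 times a count, and 35 moved. With a -log10 q-value of at least 5, the mean number of intergenic peaks per replicate was 6949.5 instead of 12945, the median fold enrichment 5.36 instead of 4.11, the median width 874 instead of 677.5 bp, the shared fraction 71.6% instead of 68.7%, the fraction within 10 kb of the start site 34.7% instead of 33.7%, the number of regions 4721 instead of 8366, the fraction with a neighbour 56.3% instead of 68.0%, and the fraction with a bound start site 43.1% instead of 52.0%. With a fold enrichment of at least 5, the same values were 4098.5 peaks, 6.85, 1041 bp, 75.2%, 34.2%, 2945 regions, 45.4% and 35.8%, with 55.9% instead of 56.3% upstream and 799 instead of 1710 coding genes. These filters also removed neighbours and promoter peaks. A limit of 25 kb gave a median fold enrichment of 4.13, 69.0% shared, 70.8% with a neighbour and 54.8% with a bound start site, and a limit of 100 kb gave 68.4%, 65.5% and 50.02% for the last 3. An overlap of 50% of both peaks gave 56.0% shared, a window of 5 kb 54.2% with a neighbour, promoter peaks within 1 kb only 43.9% with a bound start site, and the nearest RefSeq gene 3059 coding genes. Leaving out each replicate gave 12842 to 13048 regions, 73.8% to 74.1% with a neighbour and 55.9% to 56.3% with a bound start site. The shared fraction and the class of the partner need both replicates. Of the counts by gene list, 92 stayed within 1.5 times and 36 did not, and the naive list ran from 2 to 10 genes. No paired analysis was possible because the series has 1 group of EP300 samples. Read depth, input signal and the peak caller's settings are unknown, so missing peaks do not show absence of EP300.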

Other observations

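Further strong regions lay near coding genes that the report does not describe. A region 15.2 kb upstream of MECOM, a zinc finger factor of blood stem cells, was enriched 21.97 times over input in replicate 1 and 23.7 times in replicate 2, and MECOM had a second region at 8.51 and 14.0. PRF1, which encodes the perforin of cytotoxic lymphocytes, had a region at 21.6 and 22.2. PLXND1, a semaphorin receptor, had 4 regions, the strongest at 25.3 and 22.9. FABP6, a bile acid binding protein of the ileum, had 6 regions in a row upstream, the strongest at 20.8 and 20.8. FTO, an RNA demethylase, had a region beyond its end at 24.6 and 20.9. These genes were chosen after their values were seen.

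MicroRNA hairpins of RefSeq lay inside 2 intergenic regions. MIR11399 was in a region with 7.89 and 7.07, 28.4 kb from SLC16A1, a lactate transporter, and MIR12118 in a region with 4.197 and 3.12, 10.3 kb from STC2, a secreted glycoprotein.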
